A study of Mus musculus with 8 samples.

Results

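The genes described here are a chosen list of 10 genes of peptide presentation on MHC class II molecules, out of 27998 genes listed in the deposited matrices. They were taken by symbol and comprise Cd74, H2-Aa, H2-Ab1, H2-Eb1, H2-DMa, H2-DMb1, H2-DMb2, H2-Oa, H2-Ob and Ciita, and all 10 were found. The cells came from the left ventricles of male C57BL/6 mice aged 10 to 12 weeks, isolated 6 h after ischemia of 30 min by ligation of the left anterior descending artery followed by reperfusion (IR), or after a sham operation without ischemia. Each sample pooled whole-tissue cells from 3 hearts, and no gate on leukocytes was described for them. The records list 4 samples of each condition, labelled IR0h and IR6h, but the barcodes tie no cell to a sample, so each condition was 1 library and no difference between sham and IR could be set against a replicate. The labels place the sham group at 0 h, and the sources used here leave unclear how this relates to the 6 h between surgery and isolation. Cd74 (ENSMUSG00000024610) lies on chromosome 18 at 60803848 to 60812652 and Ciita (ENSMUSG00000022504) on chromosome 16 at 10480059 to 10528418, both on the plus strand of GRCm38. The other 8 genes lie on chromosome 17, and all 10 are annotated as protein coding.

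MHC class II molecules are heterodimers of an alpha and a beta chain, encoded in C57BL/6 mice by H2-Aa with H2-Ab1, while H2-Eb1 encodes the beta chain of the second heterodimer, whose alpha chain gene is defective in this strain. Cd74 encodes the invariant chain, which fills the peptide groove during assembly and leads the complex to endosomes, where cathepsins cut it down to a fragment called CLIP. H2-DM, a heterodimer of H2-DMa with H2-DMb1 or H2-DMb2, exchanges CLIP for other peptides, and H2-O, a heterodimer of H2-Oa and H2-Ob, inhibits H2-DM. Ciita encodes the transactivator that is recruited to the promoters of these genes and is induced by interferon-gamma in macrophages. Class II is known to be carried constitutively by dendritic cells and B cells, and in the heart by a part of the resident and monocyte-derived macrophages.

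Single-cell RNA sequencing tags each captured transcript with a unique molecular identifier (UMI), and the UMIs of a gene were counted in each barcoded droplet. The sham library held 11620 barcodes with a median of 4599.5 UMIs and the IR library 8539 barcodes with a median of 6244 UMIs. With the study's filter of 200 to 2500 detected genes and up to 30% of UMIs from mitochondrial genes, 9777 sham and 4880 IR cells remained. Of the barcodes, 30 occurred in both libraries. Each cell was given to the class whose markers it showed most, by 121 marker genes (4 of them not in the matrices) that include no member, and the classes are called macrophage-like, B-cell-like and so on for that reason. There were 2907 sham and 350 IR macrophage-like cells, 206 and 217 monocyte-like cells, 917 and 554 B-cell-like cells and 3810 and 310 non-leukocyte-like cells, which were fibroblast-, endothelial-, mural- and Schwann-cell-like. There were 31 dendritic-cell-like cells in sham and none in IR under this filter. The upper limit on genes removed 1600 sham and 3385 IR barcodes, and without it there were 40 sham and 19 IR dendritic-cell-like cells, so these cells are described without that limit. Levels are UMIs of a gene for every 1000000 UMIs of the class (CPM), with 95% Poisson intervals, and ratios carry exact conditional binomial intervals; both cover counting error only, and neither measures the spread between hearts.

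In the sham library the classical genes, taken as Cd74, H2-Aa, H2-Ab1 and H2-Eb1, were abundant in macrophage-, dendritic-cell- and B-cell-like cells. Their summed level was 69358 CPM in dendritic-cell-like, 41773 CPM in macrophage-like, 27876 CPM in B-cell-like, 6982 CPM in monocyte-like and 262 CPM in non-leukocyte-like cells. No neighbors in this order had overlapping counting intervals. The level was 1.81-fold higher in dendritic-cell-like than in macrophage-like cells, both without the limit on genes. In macrophage-like cells it exceeded that in B-cell-like cells by 0.58 (0.57 to 0.59) on the log2 scale, that in monocyte-like cells 5.98-fold and that in non-leukocyte-like cells 160-fold, or 101-fold without the limit on genes and by 5.98 on the log2 scale, instead of 7.32, where classes were taken from clusters. Each of the classical genes kept this order of classes. Cd74, the invariant chain gene, was at 19474 CPM (19400 to 19548) in macrophage-like cells and at 15604 CPM (15453 to 15755) in B-cell-like cells. The alpha chain gene H2-Aa was at 7357 CPM in macrophage-like and 4379 CPM in B-cell-like cells. Its partner H2-Ab1 was at 7579 and 4126 CPM, and H2-Eb1 at 7363 and 3768 CPM. The excess of macrophage-like over B-cell-like cells was thus smaller for the invariant chain gene, at a log2 ratio of 0.32 (0.30 to 0.33), than for H2-Aa, at 0.75 (0.72 to 0.78). The ratio of Cd74 to H2-Ab1 UMIs was 2.57 in macrophage-like, 3.78 in B-cell-like and 2.19 in dendritic-cell-like cells.

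**Figure D1:**
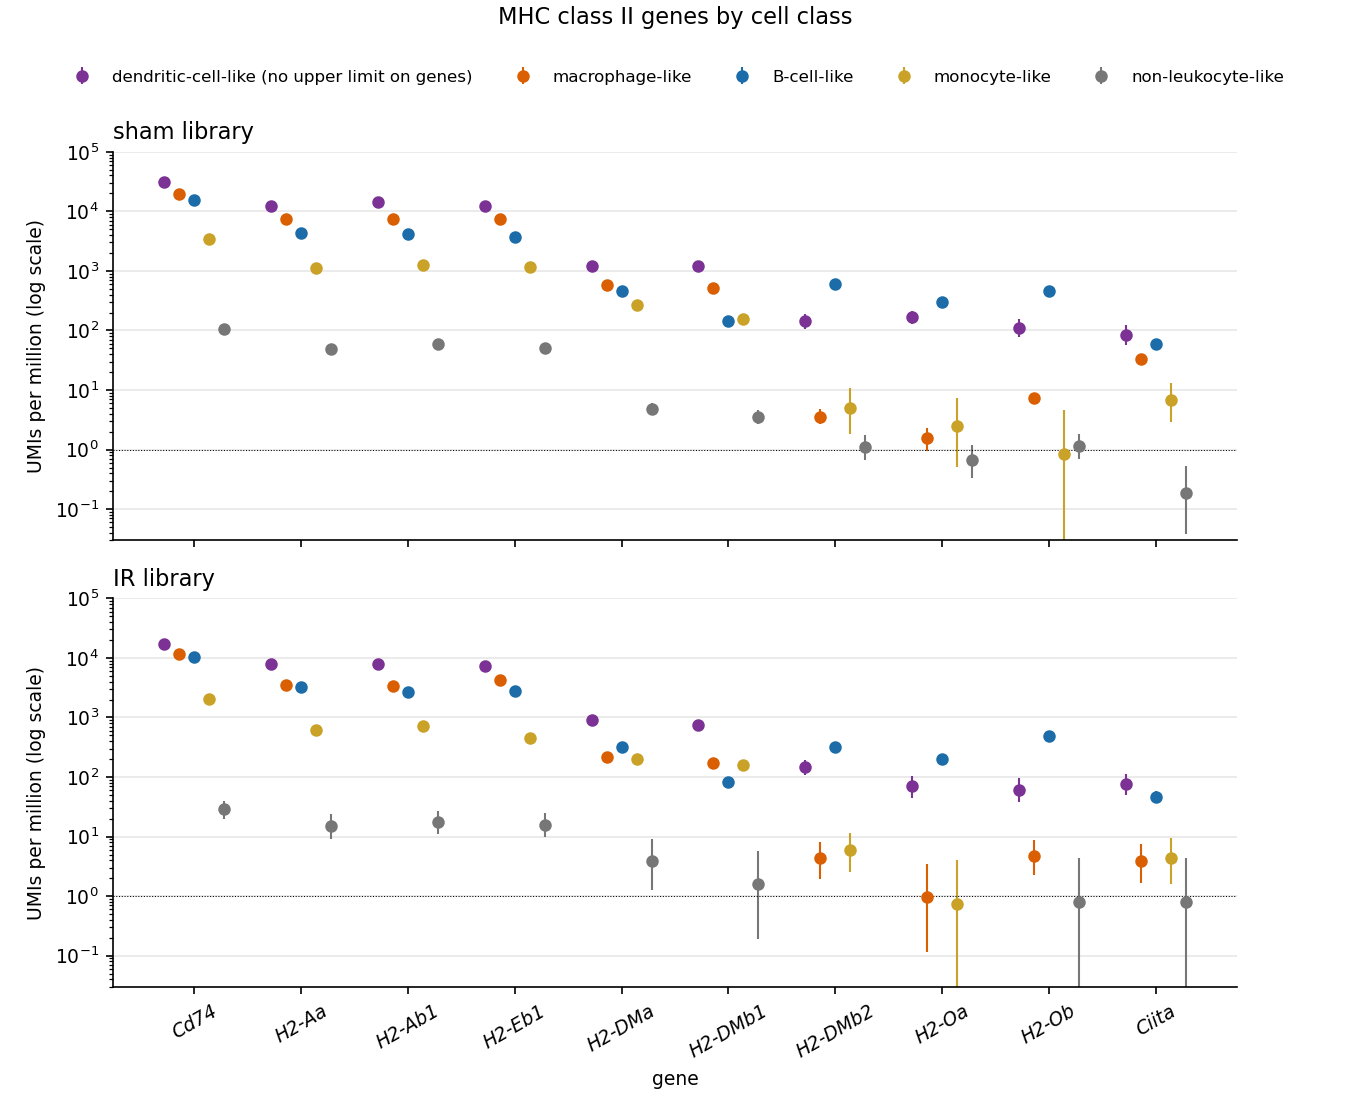
Level (CPM, log scale) of each class II gene in 5 cell classes of the sham library (top) and the IR library (bottom); points are sums over the cells of a class, lines are 95% Poisson intervals, the dotted line marks 1 CPM, and genes with 0 UMIs in a class have no point. The classical genes lie between 3768 and 30941 CPM in dendritic-cell-, macrophage- and B-cell-like cells of sham, whereas H2-DMb2, H2-Oa and H2-Ob lie below 10 CPM in macrophage-like cells of both libraries.

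Of the genes that edit the peptide load, H2-DMa and H2-DMb1 kept the order of dendritic-cell-, macrophage- and B-cell-like cells seen for the classical genes, whereas H2-DMb2, H2-Oa and H2-Ob did not. H2-DMa, the alpha chain of H2-DM, was at 1205 CPM in dendritic-cell-like, 580 CPM in macrophage-like, 464 CPM in B-cell-like and 265 CPM in monocyte-like cells of sham. H2-DMb1 was at 1219 CPM in dendritic-cell-like and 509 CPM in macrophage-like cells, but at 145 CPM in B-cell-like and 156 CPM in monocyte-like cells, whose intervals overlapped. For the paralog H2-DMb2, B-cell-like cells stood above dendritic-cell- and macrophage-like cells instead of below them. It was at 601 CPM in B-cell-like cells, 144 CPM in dendritic-cell-like cells and 3.58 CPM (2.65 to 4.74) in macrophage-like cells, 168-fold lower than in B-cell-like cells. The number of H2-DMb2 UMIs for each H2-DMb1 UMI was 4.14 in B-cell-like, 0.118 in dendritic-cell-like and 0.00704 in macrophage-like cells of sham. In IR these numbers were 3.91, 0.196 and 0.0254, the last from 9 H2-DMb2 UMIs. The 2 H2-DMb genes are near-identical copies, so reads could have been split or lost between them in counting, to an extent that was not tested.

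The H2-O genes, whose product inhibits H2-DM, were highest in B-cell-like cells. H2-Oa was at 304 CPM in B-cell-like, 167 CPM in dendritic-cell-like and 1.54 CPM in macrophage-like cells of sham, the last from 21 UMIs in 2907 cells. H2-Ob was at 457, 111 and 7.24 CPM in the same classes. The level in macrophage-like cells was 198-fold lower than in B-cell-like cells for H2-Oa and 63.1-fold lower for H2-Ob. Per H2-DMa UMI there were 0.985 H2-Ob UMIs in B-cell-like, 0.0925 in dendritic-cell-like and 0.0125 in macrophage-like cells. B-cell-like cells held 67.5% of all H2-Ob UMIs and 72.3% of all H2-DMb2 UMIs of the sham library, while macrophage-like cells held 75.7% of the classical UMIs. The low levels of H2-Oa, H2-Ob and H2-DMb2 in macrophage-like cells stood beside 24.2 CPM of the B cell genes Cd79a and Cd79b in those cells, against 5466 CPM in B-cell-like cells. The part of free or B cell RNA in these low levels was not tested.

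**Figure D2:**
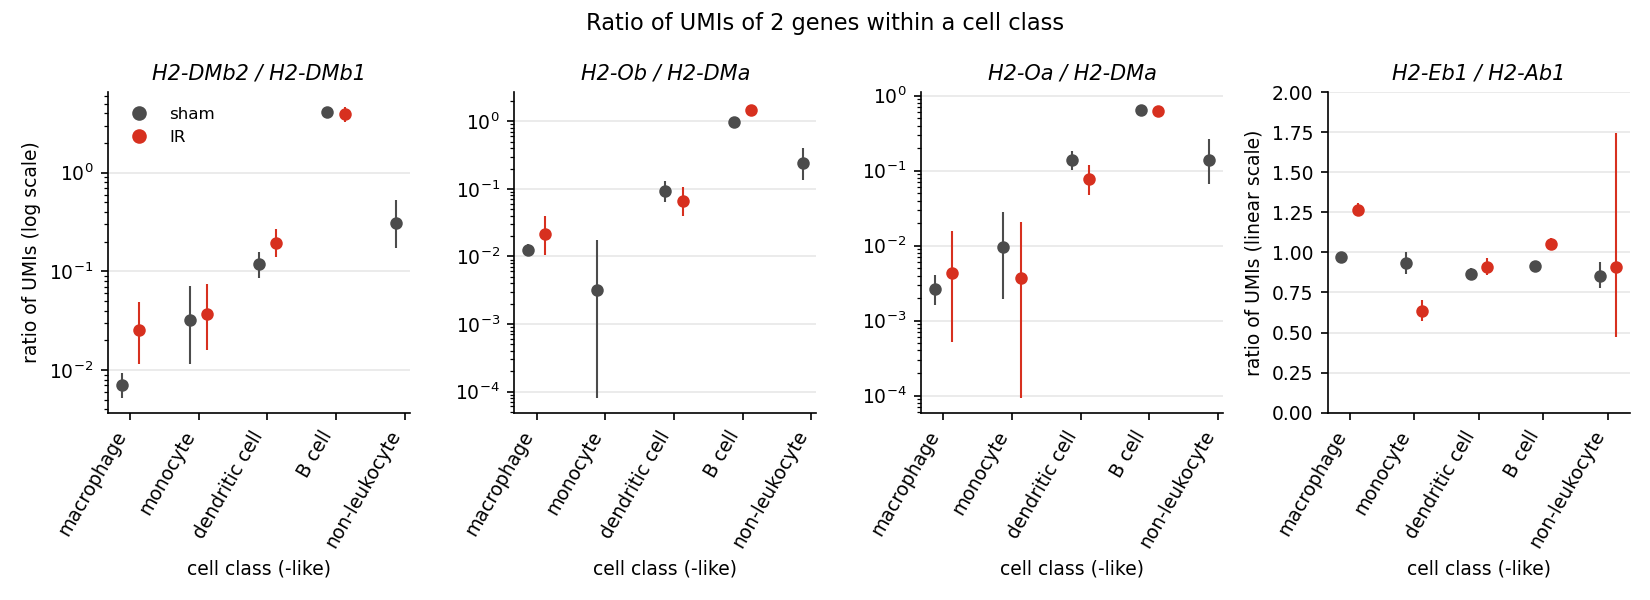
Ratio of the UMIs of a pair of class II genes within each cell class of the sham (gray) and IR (red) library, on a log scale in the 3 left panels and a linear scale in the right one; lines are 95% intervals from the counts, dendritic-cell-like cells are without the limit on genes, and ratios with a gene at 0 UMIs have no point. H2-DMb2 to H2-DMb1 is above 1 only in B-cell-like cells among the classes drawn (4.14 in sham), and H2-Eb1 to H2-Ab1 lies between 0.637 and 1.27 in all 5 classes drawn.

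Promoter windows are shown because H2-DMb2 and H2-DMb1, adjacent copies on one chromosome, had opposite orders in B-cell- and macrophage-like cells. The RefSeq windows used here (GRCm38.p6, 250 bases before to 50 after a start) matched 7 of the 10 genes, with none for Cd74, H2-Ab1 and Ciita. The letters TGATTGG, a core of the Y box bound by NF-Y, were searched on both strands and were found in 6 of the 7 genes, against 7.82% of 32851 windows of this length. The letters ATGATGC, taken from the upstream side known as the X2 box, were found in H2-DMb2, H2-DMb1, H2-Ob and H2-Eb1, against 2.46% of all windows, and both were found together in 0.174% of all windows. Both strings were chosen after the sequences had been read, and a match is a description of letters. The 130 bases before the start that RefSeq gives are printed 5′ to 3′ on the gene's strand, with these letters in capitals, for the pair of H2-DMb genes, H2-Ob and H2-Eb1, at chr17:34145119-34145248, chr17:34153061-34153190, chr17:34238775-34238904 and chr17:34305737-34305866, all on the plus strand.
H2-DMb2: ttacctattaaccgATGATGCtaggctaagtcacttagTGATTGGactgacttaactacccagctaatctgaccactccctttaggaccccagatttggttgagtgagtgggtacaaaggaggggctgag
H2-DMb1: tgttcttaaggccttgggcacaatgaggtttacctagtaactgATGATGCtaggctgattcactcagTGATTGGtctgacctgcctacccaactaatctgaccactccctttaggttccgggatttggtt
H2-Ob: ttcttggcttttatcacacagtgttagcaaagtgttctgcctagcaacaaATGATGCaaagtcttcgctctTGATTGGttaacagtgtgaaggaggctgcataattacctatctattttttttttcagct
H2-Eb1: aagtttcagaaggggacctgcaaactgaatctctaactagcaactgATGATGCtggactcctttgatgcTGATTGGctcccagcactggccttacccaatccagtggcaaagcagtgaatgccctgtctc
With the TGATTGG letters aligned, the H2-DMb1 and H2-DMb2 segments were identical at 87 of 101 bases, or 86.1%, whereas the other pairs of segments with these letters were identical at 21.9% to 36.8%. The 2 strings began 24 bases apart in both H2-DMb genes, 23 in H2-Eb1 and 21 in H2-Ob. The 2 H2-DMb genes thus had the most similar segments of these genes, while their levels in B-cell-like and macrophage-like cells had opposite orders. H2-DMa, which had 2 windows, held neither string in them.

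The same region of chromosome 17 holds H2-Oa (34092340 to 34095234), H2-DMa (34119541 to 34139101), H2-DMb2 (34143307 to 34151555), H2-DMb1 (34153072 to 34160230), H2-Ob (34238903 to 34254414), H2-Ab1 (34257689 to 34269419) and H2-Eb1 (34305867 to 34316674) on the plus strand and H2-Aa (34282744 to 34287823) on the minus strand. H2-Ob and H2-Ab1, which follow each other on the plus strand, had levels of 457 and 4126 CPM in B-cell-like cells of sham but of 7.24 and 7579 CPM in macrophage-like cells. The GENCODE starts given here differ from the RefSeq starts used for the windows, so that the printed segment of H2-DMb2 lies inside the GENCODE gene and that of H2-DMb1 mostly so. The genes of this region did not share one pattern across the classes.

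Ciita, the transactivator, was measured at low levels throughout. In sham it was at 85.0 CPM (56.9 to 122) in dendritic-cell-like cells from 29 UMIs, 59.0 CPM (50.1 to 69.0) in B-cell-like cells from 156 UMIs and 33.8 CPM (30.8 to 37.0) in macrophage-like cells from 462 UMIs. The first 2 intervals overlapped, and the level in macrophage-like cells was 1.75-fold lower than in B-cell-like cells. Ciita was at 6.68 CPM in monocyte-like cells from 8 UMIs, and 3 UMIs were found in all non-leukocyte-like cells. Of sham macrophage-like cells, 381 of 2907 (13.1%, at a median of 4600 UMIs) had a Ciita UMI, against 0.104% of fibroblast-like cells at a median of 4944 UMIs. The 381 cells had a classical level of 66622 CPM and the others 37892 CPM, at median depths of 4618 and 4595.5 UMIs. Macrophage-like cells with a Ciita UMI thus carried more of the classical RNAs at about the same depth.

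The classical genes were unevenly spread among macrophage-like cells. To compare cells of unequal depth, every cell was thinned to 1000 UMIs, which left out 54 sham and 13 IR macrophage-like cells below that depth. In sham, 9.92% of the thinned macrophage-like cells had no classical UMI, 77.9% (76.4 to 79.4, exact binomial) had at least 5, and 46.3% had at least 50, with a median of 44. In B-cell-like cells 99.3% had at least 5 and the median was 29, so that these cells had a narrower range than macrophage-like cells. In non-leukocyte-like cells 11 of 3681 (0.299%) had at least 5, as did 1.44% of T-cell-like cells. In IR, 72.7% (67.6 to 77.4) of macrophage-like cells had at least 5 classical UMIs of 1000 and 12.5% had none. The share with at least 50 was 10.4%, and the median was 20. These binomial intervals run over the cells of 1 library per condition and do not measure the spread between hearts. Under this filter those of the share with at least 5 overlapped, and the share with at least 50 differed more than the share with at least 5. Without the limit on genes the share with at least 5 was 76.5% in sham and 60.1% (56.6 to 63.5) in IR, and 11.5% and 24.9% of the cells had no classical UMI.

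**Figure D3:**
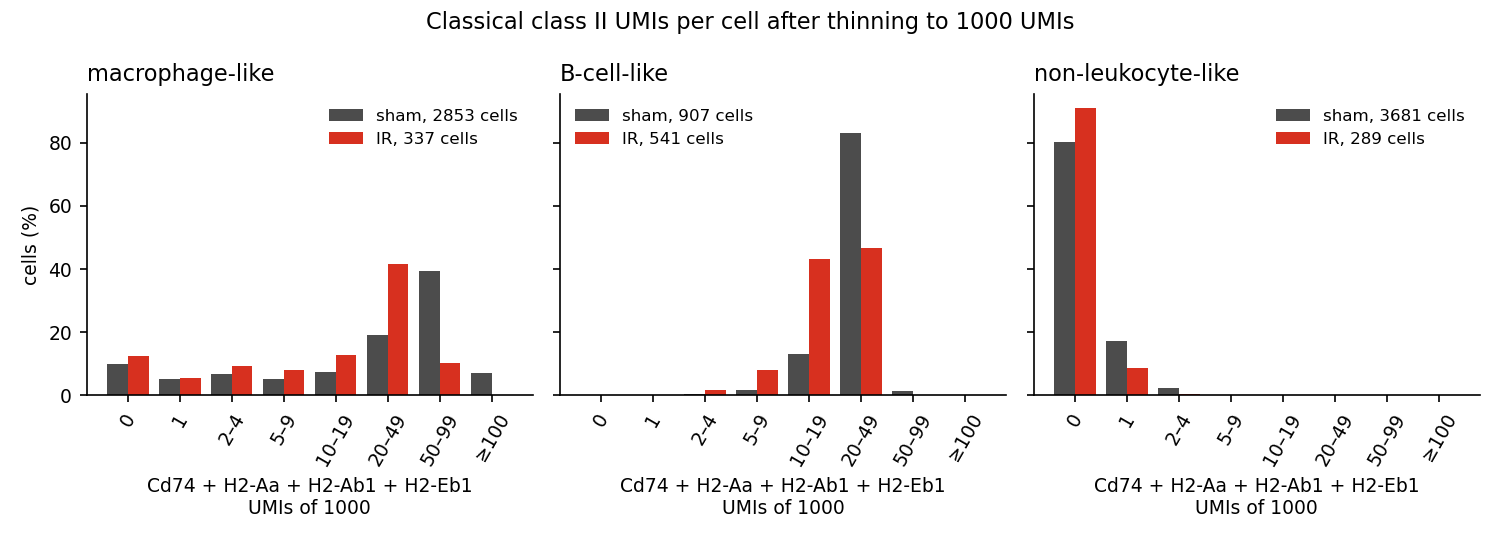
Percent of cells (vertical axis) by their number of classical class II UMIs (Cd74, H2-Aa, H2-Ab1 and H2-Eb1 summed) after thinning each cell to 1000 UMIs, in macrophage-like, B-cell-like and non-leukocyte-like cells of sham (gray) and IR (red). Sham macrophage-like cells spread from 0 to over 100 UMIs with a median of 44, IR macrophage-like cells have a median of 20, and no IR macrophage-like cell reaches 100.

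The macrophage-like cells were divided by UMIs of Timd4, Lyve1, Folr2 and Cd163, which mark resident macrophages, and of Ccr2, Ly6c2, Plac8 and Chil3, which mark monocytes and their recent descendants. In sham the classical level was 29319 CPM in the 1622 cells with UMIs of the resident list only, 68014 CPM in the 218 cells with UMIs of the CCR2 list only, 47705 CPM in the 185 cells with both and 60315 CPM in the 882 cells with neither. Ciita followed the same order, at 25.3, 57.9, 33.5 and 45.7 CPM. So did H2-DMa, at 470, 856, 638 and 730 CPM, and H2-DMb1, at 370, 922, 603 and 672 CPM. After thinning, 67.8% of the resident-list cells and 92.6% of the CCR2-list cells of sham had at least 5 classical UMIs. In IR the classical level was 17946 CPM in 172 resident-list cells, 32721 CPM in 43 CCR2-list cells, 20649 CPM in 40 cells with both and 29193 CPM in 95 cells with neither. The order of the 4 groups was the same in both libraries, and the log2 ratio of IR to sham was −0.71 for the resident list only, −1.06 for the CCR2 list only, −1.21 for both and −1.05 for neither. In the cells without the limit on genes these ratios were −1.45, −1.11, −1.52 and −1.11, so the resident-list cells had the ratio nearest to 0 only under the limit. A cell without a UMI of a list may still express it, so these groups also reflect depth.

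**Figure D4:**
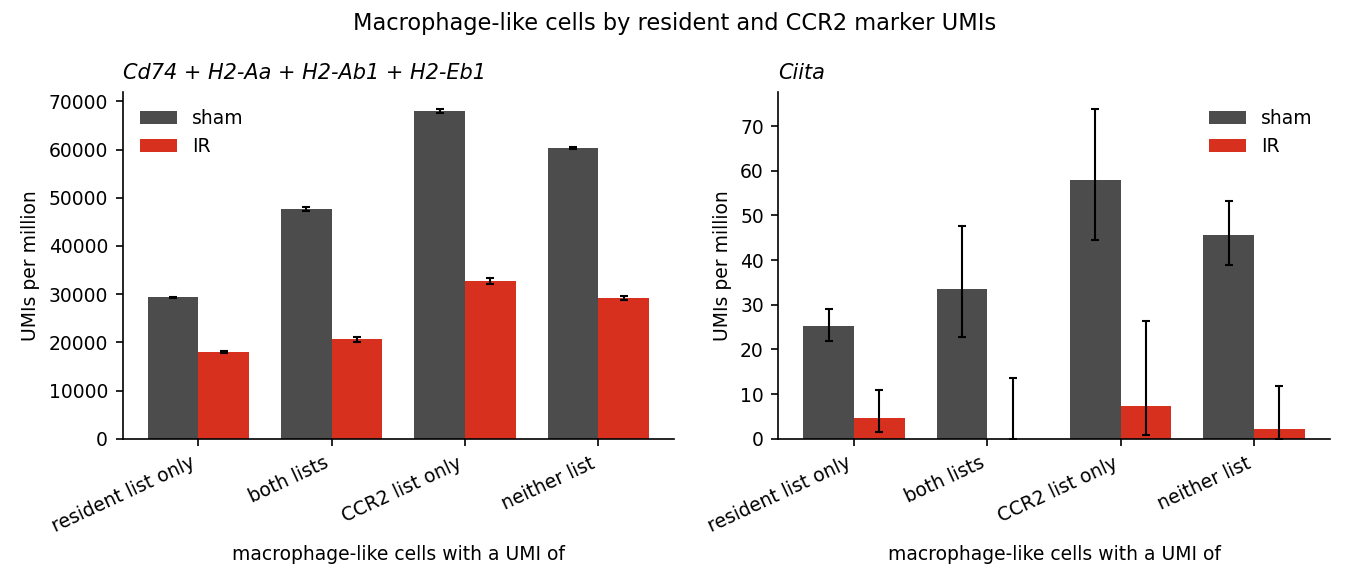
Level (CPM) of the summed classical genes (left) and of Ciita (right) in macrophage-like cells of sham (gray) and IR (red), grouped by whether a cell had UMIs of the resident list, the CCR2 list, both or neither; bars are sums over cells and lines 95% Poisson intervals. The classical level is lowest in cells with the resident list only in both libraries (29319 and 17946 CPM). Ciita is at 7.30 CPM or below in all 4 groups of IR, each from 5 UMIs or fewer. Without the limit on genes, not drawn, IR cells with the CCR2 list only are at 15.7 CPM of Ciita (8.35 to 26.8), from 13 UMIs.

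In macrophage-like cells, 7 of the 9 members with at least 50 UMIs over both libraries were lower in IR than in sham with a counting interval below 0, against 18.5% of all 9319 genes with that many UMIs. None had an interval above 0, against 30.3% of all genes, and the intervals of H2-DMb2 and H2-Ob held 0. The summed classical level was 41773 CPM in sham and 22788 CPM in IR, a log2 ratio of −0.87 (−0.89 to −0.86). The macrophage markers that define the class were also lower in IR, at 25969 CPM in sham and 16277 CPM in IR, of which the C1q genes made up 23405 and 13615 CPM. The part of this shift in the ratios of the members was not tested. Cd74 was at 19474 CPM in sham and 11808 CPM in IR, a log2 ratio of −0.72 (−0.74 to −0.70). H2-Aa was at 7357 and 3470 CPM (−1.08, −1.12 to −1.05), and H2-Ab1 at 7579 and 3315 CPM (−1.19, −1.23 to −1.16). H2-Eb1, the other beta chain gene, was at 7363 and 4195 CPM (−0.81, −0.84 to −0.78). The chains therefore did not keep their proportions. The ratio of H2-Eb1 to H2-Ab1 UMIs was 0.972 in sham and 1.27 in IR, and that of Cd74 to H2-Ab1 was 2.57 and 3.56. H2-DMa was at 580 and 220 CPM (−1.40, −1.54 to −1.26). H2-DMb1, its partner, was at 509 and 169 CPM (−1.59, −1.75 to −1.43). Both H2-DM chains thus had lower ratios than the classical genes. H2-DMb2 was at 3.58 and 4.31 CPM (0.26, −0.95 to 1.31) and H2-Ob at 7.24 and 4.78 CPM (−0.60, −1.70 to 0.34). H2-Oa had 21 UMIs in sham and 2 in IR, too few for a ratio.

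Ciita had the lowest ratio of the members in macrophage-like cells. It was at 33.8 CPM from 462 UMIs in sham and at 3.83 CPM (1.65 to 7.54) from 8 UMIs in IR, a log2 ratio of −3.14 (−4.36 to −2.15). After thinning to 1000 UMIs, 3.33% of sham and 0.593% of IR macrophage-like cells had a Ciita UMI, while 13.1% and 1.71% had one before thinning. The thinned value of IR rests on 2 of 337 cells. In sham the level in macrophage-like cells was below that in B-cell-like cells by 1.75-fold, and in IR by 12.2-fold. Macrophage-like cells held 61.1% of all Ciita UMIs in sham and 5.41% in IR, while B-cell-like cells held 20.6% and 62.8%. These shares without the limit on genes were 49.5% and 11.5% for macrophage-like and 19.1% and 29.6% for B-cell-like cells. Under the limit, macrophage-like cells were 2907 of 9777 sham and 350 of 4880 IR cells, and B-cell-like cells 917 and 554. The shares thus also follow the numbers of cells.

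Among all 9319 genes with at least 50 UMIs in macrophage-like cells, 6.57% were at least 2-fold lower in IR and 9.44% at least 2-fold higher, with a median log2 ratio of 0.14. Of the 9 members, 5 were at least 2-fold lower (H2-Aa, H2-Ab1, H2-DMa, H2-DMb1 and Ciita), none was 2-fold higher, and the median was −1.08. Without the limit on genes, 7.72% of 10151 genes were at least 2-fold lower and 9.37% higher, and 8 of 9 members were 2-fold lower, all but H2-DMb2. The summed classical level was then 38271 CPM in sham and 14123 CPM in IR (−1.44), and Ciita had 513 and 39 UMIs (−2.73, −3.24 to −2.27). The limit mattered because 467 of the IR macrophage-like cells, or 57.2%, had more than 2500 genes, against 220 or 7.04% of sham. These cells had classical levels of 11143 CPM in IR and 18889 CPM in sham, each below that of the cells within the limit. Median UMIs of macrophage-like cells were 4600 in sham and 6569 in IR. Neutrophil markers in these cells were at 66.8 CPM in sham and 634 CPM in IR, with medians of 0 and 3 UMIs per cell, and the part of this RNA in the class total was not tested. In clusters built without the members, sham macrophages lay mainly in clusters led by Fxyd2, Lyve1 and Cbr2 (1769 cells) and by Ccl12, Cd72 and Slamf9 (1174 cells), and IR macrophages in one led by Hmox1, Gdf15 and Cd36 (404 cells). A difference in level within each cell and a different mixture of macrophages cannot be told apart from these sums.

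**Figure D5:**
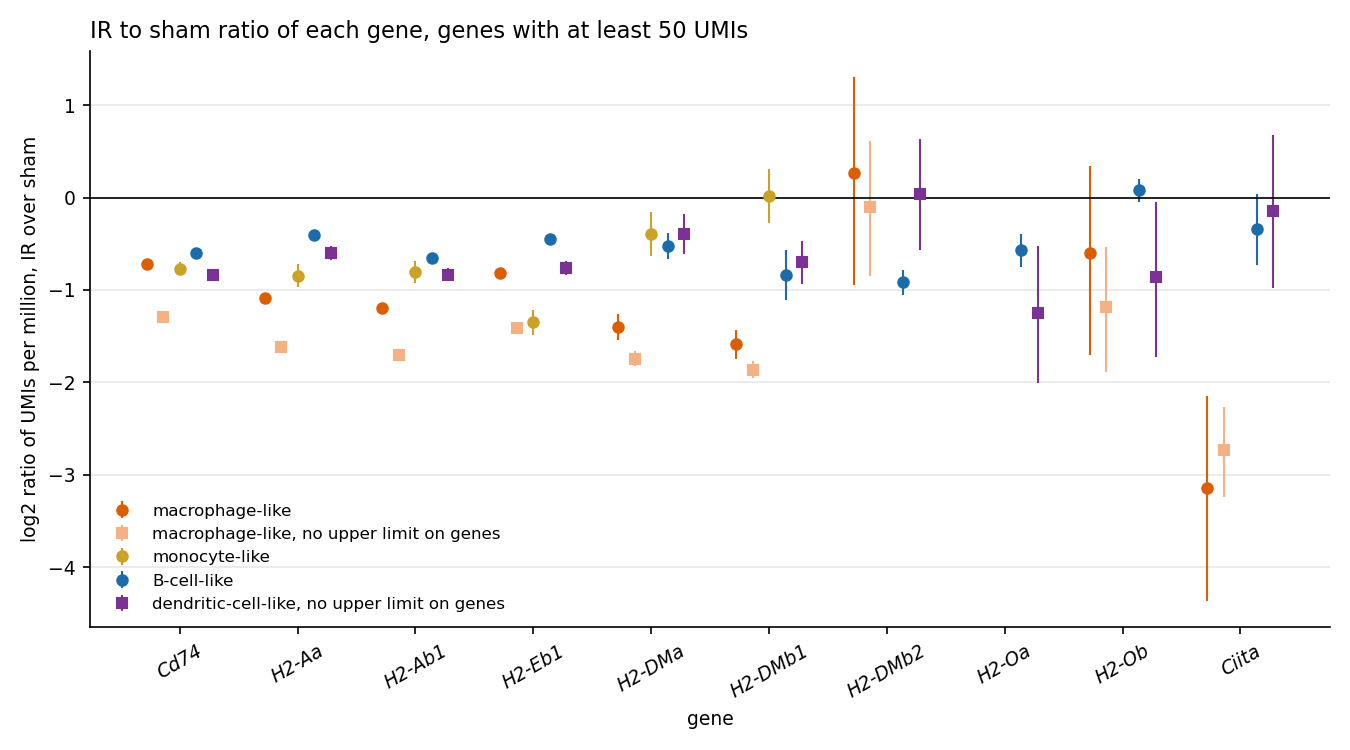
Log2 ratio of CPM, IR over sham, for each class II gene with at least 50 UMIs over both libraries in a class; points are ratios of sums, lines 95% conditional binomial intervals, and squares mark cells without the upper limit on genes. Among the macrophage-, monocyte-, B-cell- and dendritic-cell-like cells drawn, Ciita in macrophage-like cells has the lowest ratio (−3.14), whereas H2-Ob in B-cell-like cells lies at 0.08.

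In B-cell-like cells all 10 members had at least 50 UMIs, and 8 were lower in IR with an interval below 0, against 17.1% of 6610 genes. None had an interval above 0, against 21.9% of all genes. Cd74 was at 15604 CPM in sham and 10277 CPM in IR (−0.60), and the summed classical level at 27876 and 18974 CPM (−0.55, −0.57 to −0.54). H2-Aa, H2-Ab1 and H2-Eb1 had log2 ratios of −0.40, −0.65 and −0.45. The editing genes of these cells went apart. H2-DMa was at 464 and 323 CPM (−0.52), H2-DMb1 at 145 and 81.3 CPM (−0.84), and H2-DMb2 at 601 and 318 CPM (−0.92, −1.05 to −0.78). H2-Oa was at 304 and 204 CPM (−0.57), whereas H2-Ob was at 457 CPM (431 to 483) in sham and 483 CPM (453 to 514) in IR, a log2 ratio of 0.08 (−0.04 to 0.20). The number of H2-Ob UMIs per H2-DMa UMI was thus 0.985 in sham and 1.49 in IR, while that of H2-Oa was 0.655 and 0.632. After thinning, 33.8% of sham and 37.7% of IR B-cell-like cells had an H2-Ob UMI, and 43.9% and 24.8% an H2-DMb2 UMI. Ciita was at 59.0 and 46.7 CPM (−0.34, −0.73 to 0.04), with an interval that held 0. Without the limit on genes its ratio was −0.39 (−0.75 to −0.04), with an interval below 0.

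None of the 10 members was 2-fold lower or higher in B-cell-like cells, where 3.33% of 6610 genes were 2-fold lower and 3.57% higher, and the median was −0.55 for the members against 0.08 for all genes. The B cell markers of these cells were themselves at 8620 CPM in sham and 5911 CPM in IR, monocyte markers at 1821 and 594 CPM and plasmacytoid dendritic cell markers at 3426 and 1084 CPM. Neutrophil markers were at 47.7 and 896 CPM, median UMIs were 2146 and 3368.5, and the part of these in the ratios was not tested. A mitochondrial limit of 10% kept 868 of the 917 sham and 355 of the 554 IR B-cell-like cells. In the clusters, 1071 sham B cells lay in one led by Ly6d and Cd79a, and 686 IR B cells in another led by Pou2af1 and Pax5. Ly6d and Spib, both among the 10 leading genes of the first cluster, belong to the plasmacytoid dendritic cell list. That list therefore did not mark other cells alone here.

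Monocyte-like cells carried the classical genes at lower levels than macrophage-like cells in both libraries. Their summed level was 6982 CPM in sham and 3819 CPM in IR (−0.87), 5.98-fold and 5.97-fold below that of macrophage-like cells. These sums were unevenly spread over the cells. After thinning 52.2% of 205 sham and 62.7% of 209 IR monocyte-like cells had no classical UMI, the median was 0 in both, and 14 sham cells (6.83%) and 3 IR cells (1.44%) had at least 50. The monocyte markers of the class were at 21728 CPM in sham and 10091 CPM in IR, and their part in the ratios was not tested. Cd74 was at 3437 and 2017 CPM (−0.77), H2-Aa at 1128 and 628 CPM (−0.85), and H2-Ab1 at 1251 and 717 CPM (−0.80). H2-Eb1 was at 1166 and 457 CPM (−1.35), so the ratio of H2-Eb1 to H2-Ab1 UMIs was 0.932 in sham and 0.637 in IR, a difference opposite to that in macrophage-like cells. H2-DMa was at 265 and 201 CPM (−0.40, −0.64 to −0.16) and H2-DMb1 at 156 and 158 CPM (0.02, −0.27 to 0.31). H2-DMb1 was thus at the level of IR macrophage-like cells, 169 CPM, with overlapping intervals. Ciita had 8 UMIs in sham and 6 in IR, and the other members had 8 or fewer in each library. Of the 6 members with 50 UMIs, only H2-Eb1 was 2-fold lower, against 18.0% of 4894 genes 2-fold lower and 13.1% higher, a share near the background. The medians were −0.79 for the members and −0.15 for all genes. Without the limit on genes the classical log2 ratio was −1.58, and that of H2-DMb1 was −0.25 (−0.45 to −0.05), with an interval below 0.

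Dendritic-cell-like cells are described without the limit on genes, from 40 sham and 19 IR cells, chosen after it was seen that no IR cell remained under the limit. Their summed classical level was 69358 CPM in sham and 40384 CPM in IR, a log2 ratio of −0.78 (−0.81 to −0.75). Of the 40 sham cells, 31 lay within the limit on genes, whereas no IR cell did. The cells compared thus differed in their number of detected genes, and the part of this in the ratios of this class was not tested. After thinning to 1000 UMIs, 2 of the 19 IR cells had no classical UMI and 1 had 1 to 4, whereas the lowest sham cell had 32. Cd74 was at 30941 and 17297 CPM (−0.84), H2-Aa at 12081 and 7971 CPM (−0.60), H2-Ab1 at 14124 and 7910 CPM (−0.84), and H2-Eb1 at 12213 and 7206 CPM (−0.76). The classical level exceeded that of macrophage-like cells by 1.81-fold in sham and 2.86-fold in IR, both without the limit. H2-DMa was at 1205 and 916 CPM (−0.40) and H2-DMb1 at 1219 and 751 CPM (−0.70). H2-DMb2 was at 144 and 147 CPM (0.03). The H2-O genes were lower in IR, H2-Oa from 57 to 23 UMIs (−1.25, −2.01 to −0.52) and H2-Ob from 38 to 20 UMIs (−0.86, −1.72 to −0.04). Ciita was at 85.0 CPM in sham and 76.6 CPM (49.6 to 113) in IR, a log2 ratio of −0.15 (−0.98 to 0.67). In IR the Ciita level of these cells was thus 16.0-fold that of macrophage-like cells, and in sham 2.67-fold.

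Of 10 members, 8 were lower in IR dendritic-cell-like cells with an interval below 0, against 18.2% of 1703 genes, and none had an interval above 0, against 21.4%. One member, H2-Oa, was 2-fold lower, against 5.81% of all genes 2-fold lower and 10.2% higher, and the medians were −0.73 and 0.05. By marker list, the classical level was 55251 CPM in 15 sham and 46568 CPM in 7 IR cells of the cDC1 list, whose cells are known for cross-presentation, and 80981 CPM in 24 sham and 33535 CPM in 8 IR cells of the cDC2 list. Within the limit on genes the sham level was 60475 CPM in 11 cells of the cDC1 list. It was 86819 CPM in 19 sham cells of the cDC2 list, so both were higher there. Cells of the list of mature dendritic cells numbered 1 in sham and 4 in IR, at 40200 and 40857 CPM. The make-up of this class therefore differed between the libraries.

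Non-leukocyte-like cells had low levels of every member. The classical sum was 262 CPM (254 to 270) in sham and 76.9 CPM (62.4 to 93.9) in IR, a log2 ratio of −1.77. Without the limit on genes it was 379 CPM in 4340 sham and 56.1 CPM in 1580 IR cells, a log2 ratio of −2.76. The make-up of the class under the limit also differed. Fibroblast markers were at 19977 CPM in sham and 7469 CPM in IR, mural markers at 1688 and 4970 CPM, and endothelial markers at 334 and 1153 CPM. Neutrophil markers were at 34.8 and 585 CPM. In the clusters, fibroblasts lay in one with 2951 sham and 83 IR cells and another with 20 and 155. The part of these differences in the ratio was not tested. Under the limit, Cd74 was at 105 CPM in sham and 28.6 CPM in IR, and 7.80% and 3.11% of these cells had a Cd74 UMI after thinning. Free RNA from lysed cells can give such counts, and the C1q genes of macrophages, which these cells should lack, were at 106 CPM in sham and 57.4 CPM in IR fibroblast-like cells. The number of classical UMIs per C1q UMI was 1.78 in macrophage-like, 2.13 in fibroblast-like and 3.39 in endothelial-like cells of sham. It was 2.55 in mural-like cells of sham, so all 3 values were above that of macrophage-like cells there. In IR it was 1.67 in macrophage-like, 1.21 in fibroblast-like, 1.33 in endothelial-like and 1.08 in mural-like cells, the last 3 from 46, 20 and 28 classical UMIs and all below that of macrophage-like cells. The part of free RNA in these low levels was not tested.

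T-cell-like cells, 347 in sham and 210 in IR, had classical levels of 436 CPM and 118 CPM, and neutrophil-like cells, 248 and 2329, of 406 CPM and 268 CPM. Both were below monocyte-like cells in each library. Without the limit on genes the T-cell-like levels were 507 and 230 CPM, a log2 ratio of −1.14 instead of −1.89. H2-Ob was at 18.4 CPM (11.5 to 27.9) in sham and 17.2 CPM (10.5 to 26.5) in IR T-cell-like cells, against 1.14 CPM in sham fibroblast-like cells. H2-DMa was at 36.0 and 20.6 CPM in T-cell-like cells, and no Ciita UMI was found there in either library, which allows up to 0.865% of sham and 1.43% of IR T-cell-like cells with a UMI. The level of H2-Ob in sham T-cell-like cells stood beside 56.9 CPM of Cd79a and Cd79b, against 24.2 CPM in macrophage-like and 8.92 CPM in fibroblast-like cells of sham. In IR T-cell-like cells Cd79a and Cd79b were at 10.3 CPM. The part of free or B cell RNA in these H2-Ob levels was not tested.

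Over all cells within the filter, the classical level was 18567 CPM in sham and 5638 CPM in IR. Of these UMIs, macrophage-like cells held 75.7% in sham and 39.4% in IR, B-cell-like cells 9.77% and 31.3%, and cells given to no class 10.4% and 22.7%. Dendritic-cell-like cells made up 0.317% of sham cells and held 2.25% of the classical UMIs. These shares stood beside 2907 macrophage-like cells in sham and 350 in IR, and most of them moved with the limit on genes. Without it macrophage-like cells held 65.6% in sham and 38.01% in IR, B-cell-like cells 9.60% and 13.3%, and cells given to no class 20.04% and 38.3%. Of cells scoring highest for macrophage markers, 145 in sham and 95 in IR were left out because another lineage scored above 50% of their own, and 181 and 98 of the cells kept lay close to this limit, at a ratio over 0.4.

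Other genes of the pathway were followed by lists, of which 40 genes are in the matrices. In macrophage-like cells 36 of them had at least 50 UMIs, 2 were 2-fold higher and 2 were 2-fold lower in IR, with a median log2 ratio of 0.15. These counts are near the shares of all genes, 9.44% higher and 6.57% lower. Without the limit on genes 2 of 37 were higher and 6 lower, against 9.37% and 7.72%. The higher genes were Cd80 and Il10 under the limit and Ctsl (1.52) and Cd44 (1.09), a coreceptor of CD74, without it, so none was 2-fold higher in both. None of the 7 genes whose proteins bind class II promoters with Ciita (the Rfx genes, the NF-Y genes and Creb1) was past 2-fold in macrophage-like or B-cell-like cells. In macrophage-like cells Rfx5 was at 4.61 and 4.78 CPM (0.05, −1.07 to 1.03). Nfyb (0.77, 0.39 to 1.13), Nfya (0.45, 0.07 to 0.81) and Creb1 (0.37, 0.06 to 0.68) were higher in IR with intervals above 0. The intervals of Rfxap, Nfyc and Rfxank (−0.71, −1.59 to 0.05) held 0. Without the limit on genes the interval of Creb1 held 0 (−0.01 to 0.37) and that of Rfxank lay below 0 (−0.83 to −0.02). Of the endosomal proteases and the thiol reductase, Ctss, the cathepsin that trims the invariant chain, was at 1969 CPM in sham and 1085 CPM in IR (−0.86), Ifi30 at 344 and 193 CPM (−0.84), and the cathepsin inhibitor Cst3 at 6002 and 2564 CPM (−1.23). Ctsh was also lower (−0.69). Ctsl was at 206 and 343 CPM (0.73) under the limit, and Ctsb (0.42), Ctsd (0.41) and Lgmn (0.18) were higher as well. This list therefore did not share a direction. The interferon-gamma pathway genes named here did not share a direction in macrophage-like cells. Irf1 was at 167 and 96.6 CPM (−0.79, but −1.19 without the limit on genes), and Socs1 at 21.0 and 10.5 CPM (−0.996, but −1.39 without the limit). Ifngr2 had a log2 ratio of −0.33 and Ifngr1 of −0.07 (−0.20 to 0.06, but −0.27, −0.35 to −0.19, without the limit). Jak1 had one of 0.11 (−0.07 to 0.28) and Jak2 of 0.30 (−0.29 to 0.85, but 0.38, 0.06 to 0.70, without the limit). That of Irf8 was 0.27 (0.13 to 0.42, but 0.03, −0.07 to 0.12, without the limit).

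The costimulatory genes did not share a direction across the classes. In macrophage-like cells without the limit on genes, Cd80, Cd86 and Cd40 were all higher in IR with intervals above 0. Cd40 was at 29.0 CPM in sham and 29.7 CPM in IR macrophage-like cells (0.03, −0.38 to 0.42, but 0.39, 0.18 to 0.60, without the limit on genes), and at 64.7 and 34.6 CPM in B-cell-like cells (−0.90, −1.33 to −0.49). In macrophage-like cells Cd86 was at 252 CPM in sham and 474 CPM in IR (0.91, but 0.59, 0.52 to 0.66, without the limit). Cd80 was at 5.49 and 16.3 CPM (1.57, but 0.90 without the limit). Cd83, which limits the removal of class II from the surface, was at 760 and 1056 CPM (0.47). In dendritic-cell-like cells Cd86 was at 87.9 and 331 CPM (1.91) and Cd83 at 448 and 1348 CPM (1.59). Cd40 was at 14.7 and 116 CPM there (2.99, 1.64 to 4.69), from 5 and 38 UMIs, fewer than the 50 asked of a gene. Il10, whose product lowers class II, was at 13.7 and 34.4 CPM in macrophage-like cells (1.33, but 0.91 without the limit). In B-cell-like cells 32 of the 40 genes had at least 50 UMIs, 1 was 2-fold higher (Jak2, 1.68) and 3 were lower, with Socs1 at −1.18 and Mif, a ligand of CD74, at −1.03. The shares over all genes were 3.57% higher and 3.33% lower. In monocyte-like cells 10 of 31 were 2-fold higher and 8 lower, against 13.1% and 18.0% of all genes. In dendritic-cell-like cells 4 of 18 were higher and none lower, against 10.2% and 5.81%.

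Across the 18 groups of at least 50 cells that the classes and libraries give, the genes whose log2 (CPM + 1) most resembled that of the summed classical genes were Ly86 (Pearson's r = 0.959), Fgd2 (0.958), Kmo (0.917, also a marker used to find dendritic cells), Cd180 (0.911), Cd86 (0.900), Cd83 (0.893), Pkib (0.882), Pou2f2 (0.875), Atp13a2 (0.872) and Cybb (0.863), of 10449 genes with at least 200 UMIs. Ly86 was at 525 CPM in sham and 363 CPM in IR macrophage-like cells, at 410 CPM in sham B-cell-like cells, and at 636 CPM in sham monocyte-like cells, above macrophage-like cells, unlike the classical genes. It was below 25 CPM in T-cell-, NK-cell-, neutrophil- and all non-leukocyte-like groups. Among the members the correlation was 0.95 for H2-DMb1, 0.883 for H2-DMa and 0.857 for Ciita, but 0.743 for H2-DMb2, 0.468 for H2-Oa and 0.446 for H2-Ob. These groups share libraries and free RNA, and the correlations are given as a description.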

How the data were processed

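For each condition the authors deposited 1 matrix of raw UMI counts, with genes in rows and droplets called as cells in columns. Libraries were made with the 10× Chromium 3′ kit and aligned to mm10, and per the file headers Cell Ranger 3.1.0 was used. Counts were summed per gene, class and library and divided by the class total. A class needed UMIs of at least 3 of its markers, with every other lineage at or below 50% of its score (the share of markers with a UMI). Doublets were removed only through the upper limit on genes and this margin. Counts of 0 were read as allowing up to 3 UMIs. The text names all 10 members, genes of the pathway lists, and the 10 other genes with at least 200 UMIs most correlated with the summed classical genes over classes and libraries. With 1 library per condition no p-values were computed, and the 2-fold counts describe size alone. The members and lists were chosen with earlier results of these data known. Alternatives changed the filters, the margin, the total, the weighting of cells and the classes (Leiden clusters, 30 principal components, 30 neighbors, resolution 0.8, built without the members). A cluster was named by the same margin where its 10 leading genes held at least as many of its own markers as of any other lineage. Clusters of any other kind stayed unnamed, as did those with no own marker there and a score below 0.5, a threshold set after they had been seen (under the limit on genes, 68 sham and 23 IR cells of one and 14 and 13 of another). Clustering used igraph 0.11.9, leidenalg 0.10.2 and scikit-learn 1.9.0, the sums and intervals pandas 2.3.3, numpy 2.4.6 and scipy 1.17.1, and the plots matplotlib 3.10.9, in Python 3.11.15, and the steps were tested on simulated data. The genes' coordinates are those of GENCODE on GRCm38. One gene of the pathway lists is counted with its list but not reported here.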

Additional observations from a re-analysis of the deposited data

How the results depend on the processing

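The classical log2 ratio of IR to sham in macrophage-like cells (−0.87) was −1.44 with no upper limit on genes, −0.82 with a mitochondrial limit of 10%, −1.02 with other lineages below 25% of the top score, −0.93 by clusters, −0.81 with the total without mitochondrial, ribosomal and hemoglobin genes and −1.03 as a mean of per-cell CPM. For B-cell-like cells (−0.55) the last 4 settings gave −0.59 (stricter margin), −0.60 (clusters), −0.47 (reduced total) and −0.58 (per-cell mean). For dendritic-cell-like cells (−0.78) the per-cell mean gave −0.91. The fixed filter, the stricter margin and the clusters gave no value for these cells, since no IR cell remained or no cluster could be named. Without the limit on genes a cluster of 88 sham and 82 IR cells, led by Ccl17, Cd209a and Ccl22, scored highest for dendritic cells (0.594), but its score for another lineage (0.415) was above 50% of that, and it stayed unnamed. The log2 ratio of macrophage-like to non-leukocyte-like cells in sham (7.32) was 6.66 with no upper limit, 7.41 with the mitochondrial limit, 7.72 with the stricter margin, 5.98 by clusters, 7.26 with the reduced total and 7.27 as a per-cell mean. The share of IR macrophage-like cells with at least 5 classical UMIs of 1000 (72.7%) was 60.1% with no upper limit. The direction was the same in all of these. Of single members with at least 50 UMIs, 68 of 71 alternative values in macrophage-like, 79 of 80 in B-cell-like and 44 of 48 in monocyte-like cells kept the direction, while 28, 13 and 19 of them moved beyond the counting interval. Leaving out the barcodes found in both libraries, added after seeing the data, changed none of these results beyond their counting intervals. In macrophage-like cells 1492 genes were past 2-fold, and 2101 with a minimum of 10 UMIs. No paired analysis was possible because the barcodes map no cell to a numbered sample, so replicates could not be left out either. Counts below about 10 UMIs (Ciita, H2-Oa and H2-DMb2 in IR macrophage-like cells) limit what can be read at this depth.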
